A study of Homo sapiens with 7 samples.

Results

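Genes of the hypoxia response and of glycolysis were followed in SUM159 cells with and without SHP2 knockdown. SUM159 is a mesenchymal triple-negative breast cancer line, and SHP2 is a tyrosine phosphatase encoded by PTPN11. The 37 genes were chosen by name, with earlier results of these data known. Their counts are therefore set beside the shares over all genes as description only. They fall into 15 glycolytic enzymes and 22 other hypoxia genes, which are described separately. On the arrays, 14 of the glycolytic enzymes and 21 of the other hypoxia genes were read by a probe with 1 gene symbol, together 35 of the 18417 genes measured. PGAM1 was matched only by probes with several symbols, and neither PGAM1 nor CA9 was analysed here. Their RNA was read on 7 arrays of the Human Gene 1.0 ST type, which carry probes along each transcript and report its RNA level as brightness. All cells carried a lentiviral hairpin switched on by doxycycline and were kept in 2D culture with doxycycline for 15 days. The hairpin was SHP2 sh2 on 3 arrays, SHP2 sh1 on 2 arrays and the control Ctrl shRNA on 2 arrays. No label names a low-oxygen treatment.

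Cells sense oxygen through the transcription factor HIF1, whose alpha subunit is encoded by HIF1A. In oxygen, prolyl hydroxylases of the EGLN family mark HIF1A protein for destruction, so that its level is set largely after transcription and its RNA need not follow its activity. Stabilised HIF1A pairs with ARNT, binds hypoxia response elements and raises glucose transporters, glycolytic enzymes, collagen-modifying enzymes, mitophagy receptors and secreted factors. Many tumour lines use this programme to run glycolysis at a high rate even in oxygen.

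PTPN11 was lower on all 5 SHP2 hairpin arrays (6.93 to 7.96) than on both Ctrl shRNA arrays (9.18 and 9.53), in log2 units. No label says that replicate arrays stem from separate cultures, and the p-values then cover only how these arrays scatter, possibly for technical reasons. SHP2 sh2 replicate 2 and SHP2 sh1 replicate 2 stood apart from the rest. Over all probes they correlated with each other at 0.972 and with the other 5 arrays at 0.886 to 0.936 and 0.930 to 0.965, while those 5 correlated among themselves at 0.981 to 0.992. On these arrays bright genes read lower and dim genes higher. The brightest 25% of genes had a median difference from the Ctrl shRNA mean of -0.83 for SHP2 sh2 replicate 2 and -0.44 for SHP2 sh1 replicate 2, and of -0.13 to 0.00 on the other SHP2 arrays. Of the members, 12 of 14 glycolytic enzymes and 15 of 21 other hypoxia genes belong to these bright genes, and the part of this compression in their values was not tested. The 6 markers of mesenchymal breast cancer cells had a median log2 level of 10.59 to 11.80 per array, against 5.60 to 6.73 for the 7 measured markers of epithelial breast cancer cells, 5.48 to 6.32 for 6 blood cell markers and 5.53 to 6.30 for 5 endothelial markers. On SHP2 sh2 replicate 2 and SHP2 sh1 replicate 2 the dim lists read higher than the Ctrl shRNA mean, with medians of 0.93 and 0.53 for the epithelial markers, 0.57 and 0.25 for the endothelial, 0.38 and 0.29 for the blood and 0.49 and 0.23 for the dimmest 25% of genes. The bright mesenchymal markers read lower there, at -0.85 and -0.27. The part of these markers in the members' values was not tested either. In such bulk RNA, fewer cells of a type and less RNA per cell cannot be told apart.

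The other hypoxia genes read lower with SHP2 sh2 than with Ctrl shRNA, while the arrays of SHP2 sh1 pointed in opposite directions. No member passed an adjusted p of 0.05 in limma in any comparison, and nor did any gene on the array (0.0% called in each of the 4 comparisons). Genes with an unadjusted p under 0.05 numbered 432 of 18417 with SHP2 sh2, 201 with SHP2 sh1, 358 when the hairpins were averaged and 116 when SHP2 sh2 was set against SHP2 sh1. Every member difference between SHP2 sh2 and Ctrl shRNA that is printed with its SE had an adjusted p of 0.667 from limma. On SHP2 sh2 replicates 1, 2 and 3 the other hypoxia genes had a median difference from the Ctrl shRNA mean of -0.52, -0.93 and -0.42. The corresponding medians were 0.67 for SHP2 sh1 replicate 1 and -0.60 for SHP2 sh1 replicate 2, against -0.07 and 0.07 on the Ctrl shRNA arrays. The glycolytic enzymes had medians nearer to the control on every SHP2 array but SHP2 sh1 replicate 2. Their medians were -0.30, -0.84 and -0.04 with SHP2 sh2 and 0.10 and -0.68 with SHP2 sh1, against -0.04 and 0.04 with Ctrl shRNA. Thus in both sets the most negative medians came from the 2 arrays that stood apart. On SHP2 sh2 replicates 1 and 3 the medians were -0.52 and -0.42 for the other hypoxia genes. For the enzymes they were -0.30 and -0.04 on these arrays.

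**Figure D1:**
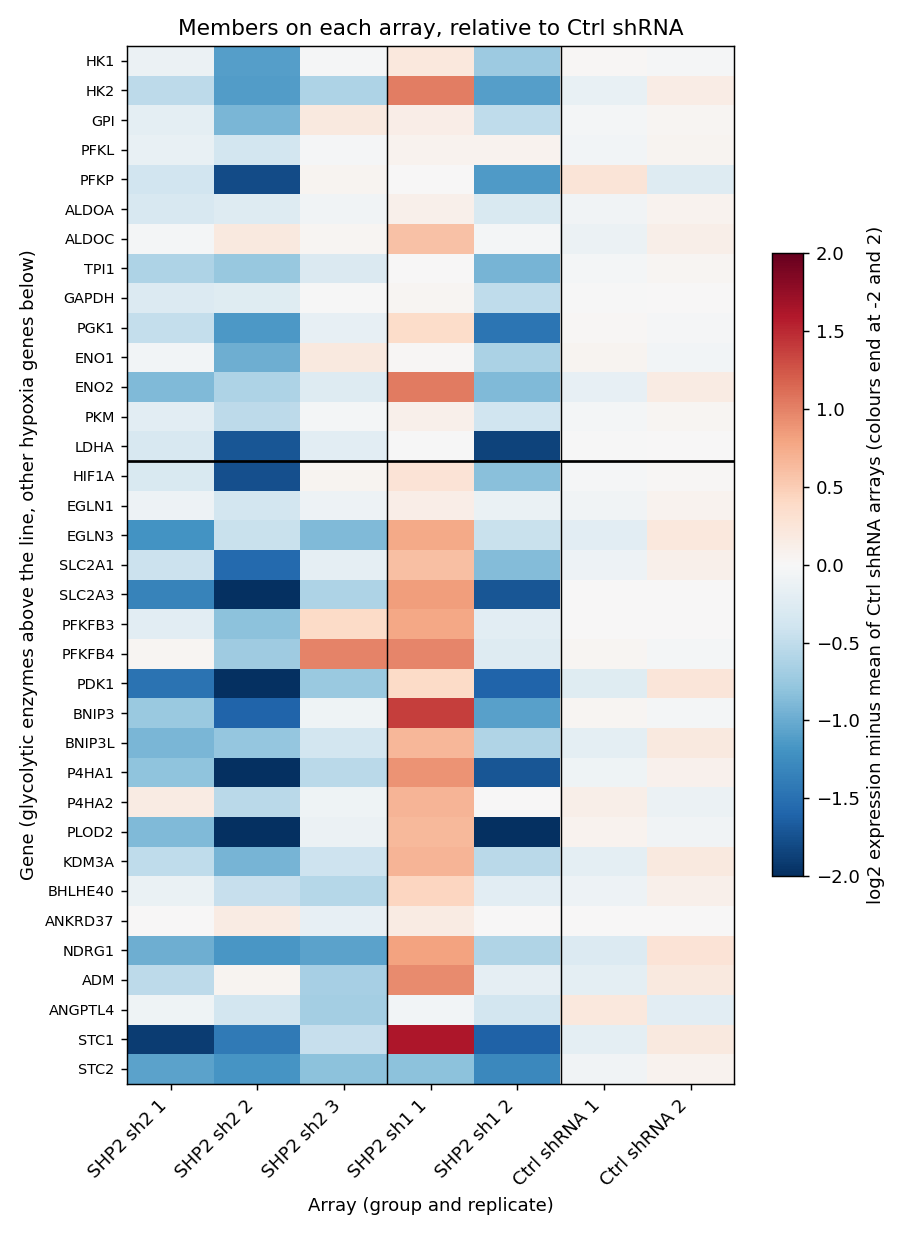
Log2 expression minus the mean of the Ctrl shRNA arrays for the 35 measured members (rows) on each of the 7 arrays (columns), with blue for lower and red for higher and colours ending at -2 and 2. Most of the other hypoxia genes are blue in the 3 SHP2 sh2 columns and red in the column of SHP2 sh1 replicate 1, while STC2 is blue on all 5 SHP2 arrays.

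**Figure D2:**
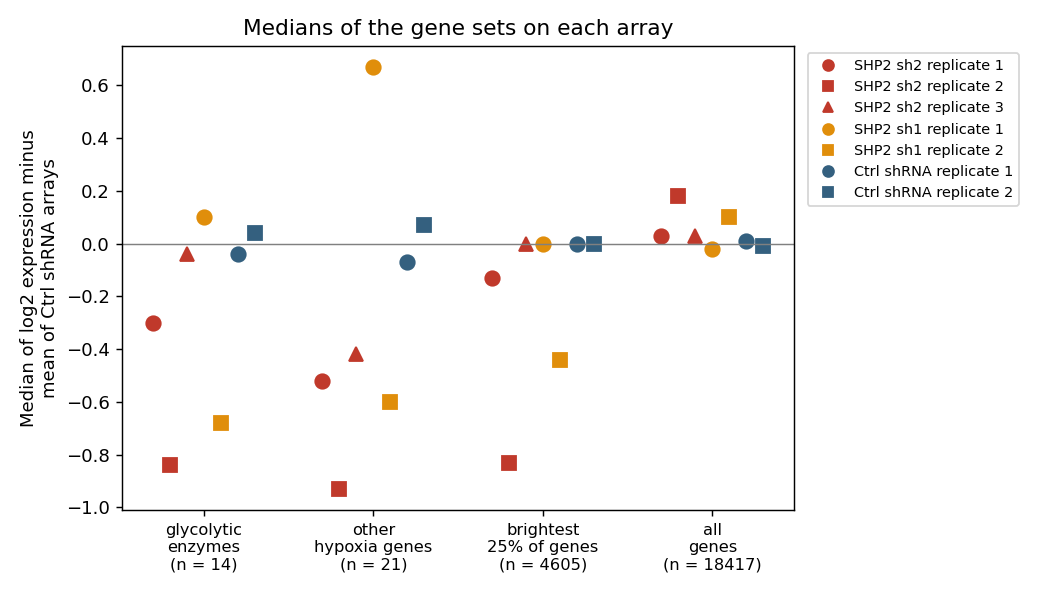
Median over each gene set of log2 expression minus the Ctrl shRNA mean (vertical axis), 1 point per array, with colour for the group and shape for the replicate. For the other hypoxia genes the 3 SHP2 sh2 points lie between -0.93 and -0.42, and SHP2 sh1 replicate 1 at 0.67, whereas the medians over all genes lie between -0.02 and 0.18.

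Promoter sequences are shown for 6 members whose arrays are described next, 3 other hypoxia genes and 3 glycolytic enzymes, because the core of the hypoxia response element can be read in them. Each is the 250 bases before a start site in the RefSeq annotation of GRCh38.p14, written along the gene's strand. Capitals mark ACGTG or GCGTG on either strand (CACGT or CACGC as printed), and CACGTG, the E-box that other factors also bind, counts as a match on both strands. The windows are chr2:172555840-172556089 (plus strand) for PDK1, chr3:146161185-146161434 (minus strand) for PLOD2 and chr5:173328415-173328664 (minus strand) for STC2. For the enzymes they are chr11:18394313-18394562 for LDHA, chrX:78103998-78104247 for PGK1 and chr2:74834920-74835169 for HK2, all on the plus strand.
PDK1: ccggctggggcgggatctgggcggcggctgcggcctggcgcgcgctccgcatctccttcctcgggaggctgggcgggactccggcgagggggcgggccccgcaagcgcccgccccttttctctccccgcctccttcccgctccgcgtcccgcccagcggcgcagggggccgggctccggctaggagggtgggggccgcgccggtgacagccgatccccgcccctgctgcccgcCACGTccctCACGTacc
PLOD2: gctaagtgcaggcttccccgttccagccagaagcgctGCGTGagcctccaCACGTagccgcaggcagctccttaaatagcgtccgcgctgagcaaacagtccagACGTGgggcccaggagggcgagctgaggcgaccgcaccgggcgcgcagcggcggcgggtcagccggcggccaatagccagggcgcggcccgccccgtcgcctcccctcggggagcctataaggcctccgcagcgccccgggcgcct
STC2: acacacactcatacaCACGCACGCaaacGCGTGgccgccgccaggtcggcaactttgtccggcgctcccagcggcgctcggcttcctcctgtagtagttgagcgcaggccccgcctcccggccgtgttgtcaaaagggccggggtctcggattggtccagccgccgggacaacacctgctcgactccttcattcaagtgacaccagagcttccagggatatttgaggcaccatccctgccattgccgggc
LDHA: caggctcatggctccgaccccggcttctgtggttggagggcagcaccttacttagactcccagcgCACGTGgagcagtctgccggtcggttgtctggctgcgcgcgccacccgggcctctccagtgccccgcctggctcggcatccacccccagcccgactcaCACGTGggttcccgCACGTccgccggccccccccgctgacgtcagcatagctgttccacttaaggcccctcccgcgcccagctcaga
PGK1: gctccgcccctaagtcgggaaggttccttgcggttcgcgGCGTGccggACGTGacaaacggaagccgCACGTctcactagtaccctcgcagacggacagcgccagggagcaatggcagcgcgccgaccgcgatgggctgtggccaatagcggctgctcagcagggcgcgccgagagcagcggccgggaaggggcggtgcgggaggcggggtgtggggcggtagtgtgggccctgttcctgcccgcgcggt
HK2: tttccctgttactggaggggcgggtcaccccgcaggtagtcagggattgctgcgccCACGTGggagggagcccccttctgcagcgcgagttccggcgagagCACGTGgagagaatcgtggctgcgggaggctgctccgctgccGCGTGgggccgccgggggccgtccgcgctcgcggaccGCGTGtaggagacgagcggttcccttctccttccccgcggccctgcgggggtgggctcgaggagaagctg
The LDHA window held 5 matches to ACGTG, 4 of them from 2 copies of CACGTG, and the HK2 window held 4, all from 2 copies of CACGTG, together with 2 matches to GCGTG. PDK1 had 2 matches to ACGTG in the last bases before its start, and PLOD2 and PGK1 each had 2 together with 1 match to GCGTG. STC2 differed in having none to ACGTG and 3 to GCGTG. Among members, 33 were in the promoter table, with 51 windows. ACGTG occurred in 23 of these windows (45.1%), against 18.5% of all 35116 windows of the same length, and GCGTG in 37.3% against 32.2%. CACGTG, which contains ACGTG, was in 17.6% of the members' windows and in 6.34% of all. Genes with several start sites entered more than once, with 29 windows for 15 enzymes and 35116 windows for 27305 genes in all. The members were listed as hypoxia and glycolysis genes, so these shares describe the list and test nothing. Such a match describes the letters only. For a gene with several windows, the window with the most matches is the one printed.

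With SHP2 sh2, 19 of 21 other hypoxia genes had a log2 difference from Ctrl shRNA below 0, with a median of -0.68. Over all genes 7890 of 18417 were below 0, with a median of 0.09. For 14 of 21, all 3 SHP2 sh2 arrays lay below both Ctrl shRNA arrays, as they did for 16.1% of all genes and 28.9% of the brightest 25%. Without the SHP2 sh2 array that stood apart the count was 15 of 21 (background 17.9%, and 29.8% among the brightest) and the median -0.46. None had all 3 arrays above both controls, where 24.2% of all genes did, and none had replicates 1 and 3 above both, where 27.0% did. SHP2 sh2 replicate 2 was the lowest of the 7 arrays for 13 of 21 other hypoxia genes and 7 of 14 enzymes (background 30.7%, and 67.2% among the brightest 25%). The median of -0.68 exceeded 0.49, the SD between array medians within groups. The median of -0.46 without replicate 2 and that of -0.30 after cyclic loess, a further normalization by brightness, did not. That SD was taken with every array kept and without cyclic loess. It also pools the SHP2 sh1 arrays, at 0.67 and -0.60, so it is not the spread of the arrays compared here.

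PDK1, the kinase that inhibits pyruvate dehydrogenase and so keeps pyruvate out of the mitochondrion, had the largest log2 difference among the members with SHP2 sh2. It read 7.48, 6.77 and 8.22 with SHP2 sh2 and 9.35 and 7.36 with SHP2 sh1, against 8.72 and 9.20 with Ctrl shRNA. The SHP2 sh2 arrays all lay below both controls, and the SHP2 sh1 arrays lay on either side of them. Group means were 7.49 ± 0.72 with SHP2 sh2 (SD, n = 3) and 8.96 ± 0.34 with Ctrl shRNA (SD, n = 2), a log2 difference of -1.47 (SE 0.65, adjusted p = 0.667 from limma).

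Glucose transporters showed the same order of arrays. SLC2A3, a high-affinity glucose transporter, was at 8.27, 7.58 and 8.98 with SHP2 sh2 and 10.43 and 7.89 with SHP2 sh1, against 9.60 and 9.60 with Ctrl shRNA. The log2 difference with SHP2 sh2 was -1.32 (SE 0.75), and -0.97 without SHP2 sh2 replicate 2. SLC2A1, the widely expressed basal transporter, was at 10.63, 9.51 and 10.88 with SHP2 sh2 and 11.66 and 10.20 with SHP2 sh1, against 10.96 and 11.17 with Ctrl shRNA. For SLC2A1 the gap between SHP2 sh2 replicate 3 and the lower control was smaller than that between the controls. Its log2 difference of -0.72 (SE 0.55) was -0.31 without SHP2 sh2 replicate 2.

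Enzymes that modify collagen in the endoplasmic reticulum spanned wide ranges. PLOD2, a lysyl hydroxylase needed for collagen cross-links, read 9.17, 6.95 and 9.94 with SHP2 sh2 and 10.71 and 7.70 with SHP2 sh1, against 10.13 and 9.98 with Ctrl shRNA. P4HA1, a catalytic subunit of collagen prolyl hydroxylase, read 7.61, 5.90 and 7.88 with SHP2 sh2 and 9.32 and 6.71 with SHP2 sh1, against 8.33 and 8.50 with Ctrl shRNA. For both genes the lowest array was SHP2 sh2 replicate 2 and the highest SHP2 sh1 replicate 1. The log2 differences with SHP2 sh2 were -1.37 for PLOD2 (SE 1.10) and -1.28 for P4HA1 (SE 0.86), and without SHP2 sh2 replicate 2 they were -0.51 and -0.67. P4HA2, the subunit of a second form of the enzyme, overlapped the controls, at 9.14, 8.43 and 8.89 with SHP2 sh2 and 9.65 and 8.99 with SHP2 sh1, against 9.09 and 8.86 with Ctrl shRNA.

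NDRG1, a stress-induced gene that is a common marker of hypoxia, had tight SHP2 sh2 values. It was at 9.46, 9.28 and 9.37 with SHP2 sh2 and 11.24 and 9.84 with SHP2 sh1, against 10.16 and 10.72 with Ctrl shRNA. With SHP2 sh2 the log2 difference was -1.07 (SE 0.42, adjusted p = 0.667 from limma), and -1.02 without the array that stood apart. NDRG1 and STC2 were the 2 of 21 other hypoxia genes that were lower at an unadjusted p under 0.05 in this comparison, against 1.81% of all genes. EGLN3, a prolyl hydroxylase that is itself a HIF target and feeds back on HIF, was at 7.75, 8.50 and 8.07 with SHP2 sh2 and 9.71 and 8.50 with SHP2 sh1, against 8.74 and 9.16 with Ctrl shRNA. For EGLN3 the array that stood apart was the one nearest to the controls, and the log2 difference of -0.85 (SE 0.41) was -1.04 without it. EGLN1, the main oxygen-sensing hydroxylase, varied little, at 8.45, 8.17 and 8.45 with SHP2 sh2 and 8.67 and 8.41 with SHP2 sh1, against 8.48 and 8.61 with Ctrl shRNA. Its SHP2 sh2 arrays lay below both controls, replicates 1 and 3 by a narrow margin.

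HIF1A itself overlapped its controls with SHP2 sh2. Its arrays read 11.39, 9.94 and 11.76 with SHP2 sh2 and 11.98 and 10.86 with SHP2 sh1, against 11.68 and 11.72 with Ctrl shRNA. The log2 difference of -0.66 with SHP2 sh2 (SE 0.58) was -0.12 without SHP2 sh2 replicate 2.

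The stanniocalcins, secreted glycoproteins first known from calcium regulation in fish, behaved differently from each other. STC1 had the widest gap between the SHP2 sh1 arrays of any measured member (SD 2.28, n = 2). It was at 6.80, 7.29 and 8.24 with SHP2 sh2 and 10.32 and 7.09 with SHP2 sh1, against 8.50 and 8.90 with Ctrl shRNA. The log2 difference with SHP2 sh2 was -1.25 (SE 0.91). STC2 was at 6.35, 6.23 and 6.60 with SHP2 sh2 and 6.60 and 6.13 with SHP2 sh1, against 7.34 and 7.49 with Ctrl shRNA. It was the only measured member with all 5 SHP2 arrays below both controls (1 of 35, with 7.17% of all genes), and no member had all 5 above them (8.13% of all genes). The log2 difference was -1.02 with SHP2 sh2 (SE 0.23, adjusted p = 0.667 from limma) and -1.05 with SHP2 sh1 (SE 0.25, adjusted p = 0.995 from limma). For the mean of both hairpins it was -1.04 (SE 0.21, adjusted p = 0.758 from limma), a rank of 9 among 18417 genes by p. STC2 was 2.03-fold lower with SHP2 sh2 and 2.07-fold lower with SHP2 sh1.

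**Figure D3:**
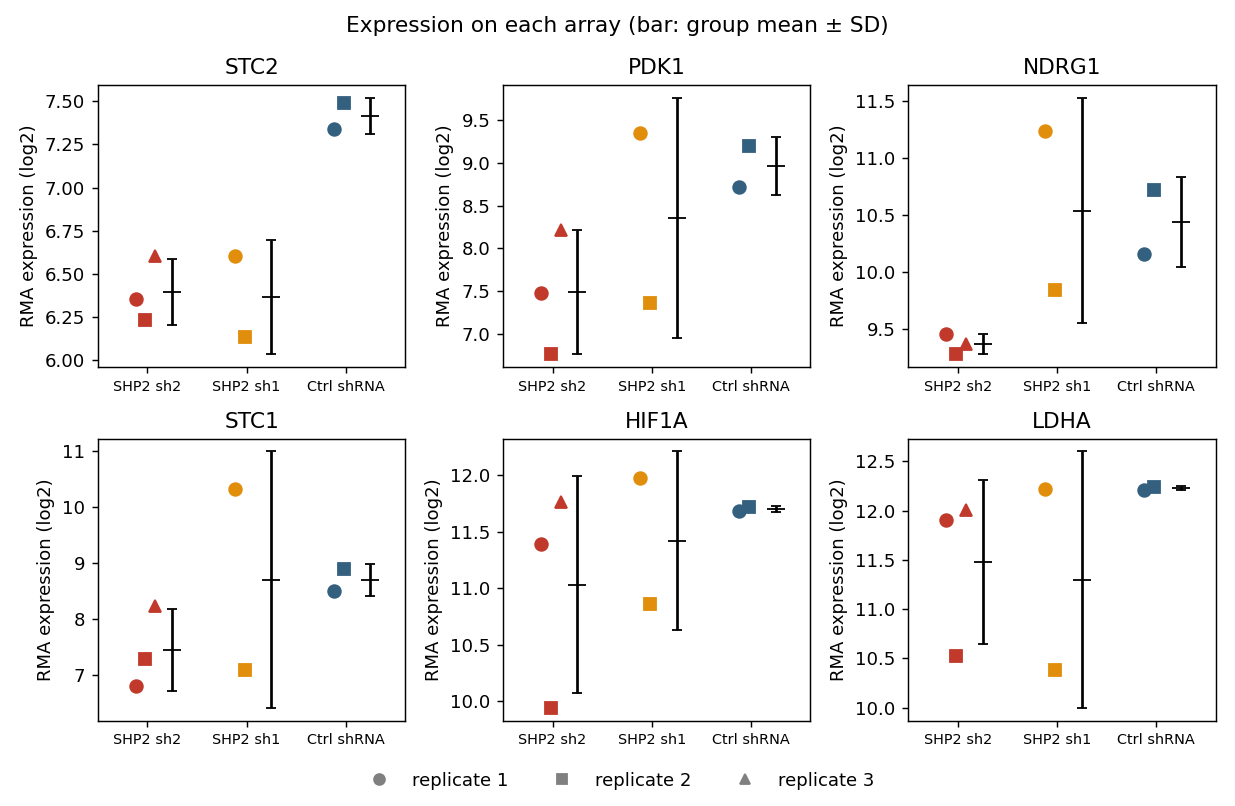
RMA expression (log2) of 6 members on each array, in groups SHP2 sh2, SHP2 sh1 and Ctrl shRNA, with the mean ± SD as a bar beside the points and the replicate given by shape. For STC2 all 5 SHP2 points (6.13 to 6.60) lie below both controls, while PDK1, NDRG1 and STC1 show SHP2 sh1 replicate 1 above the controls, and HIF1A and LDHA have their lowest points on the arrays that stood apart.

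The mitophagy receptors BNIP3 and BNIP3L, which direct mitochondria to autophagy, were each below both controls on all 3 SHP2 sh2 arrays. BNIP3 was at 8.24, 7.38 and 8.90 with SHP2 sh2 and 10.36 and 7.90 with SHP2 sh1, against 9.02 and 8.94 with Ctrl shRNA. On SHP2 sh2 replicate 3 it was just under the lower control, and its log2 difference of -0.81 (SE 0.74) was -0.41 without replicate 2. BNIP3L was at 9.20, 9.33 and 9.75 with SHP2 sh2 and 10.78 and 9.51 with SHP2 sh1, against 9.91 and 10.31 with Ctrl shRNA. Among nuclear factors, KDM3A, a histone demethylase, read 6.36, 5.94 and 6.45 with SHP2 sh2 and 7.55 and 6.33 with SHP2 sh1, against 6.67 and 7.07 with Ctrl shRNA. BHLHE40, a transcriptional repressor, read 9.75, 9.42 and 9.32 with SHP2 sh2 and 10.31 and 9.67 with SHP2 sh1, against 9.78 and 9.99 with Ctrl shRNA. Both had every SHP2 sh2 array below the controls, BHLHE40 by a narrow margin on replicate 1.

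A few of the other hypoxia genes did not share this order. PFKFB3 and PFKFB4, which make the activator of phosphofructokinase, had SHP2 sh2 replicate 3 above both controls. PFKFB4 was at 7.89, 7.13 and 8.83 with SHP2 sh2 and 8.82 and 7.59 with SHP2 sh1, against 7.89 and 7.80 with Ctrl shRNA. PFKFB3 was at 8.81, 8.20 and 9.41 with SHP2 sh2 and 9.79 and 8.81 with SHP2 sh1, against 9.02 and 9.02 with Ctrl shRNA. ADM, which encodes the vasodilator adrenomedullin, had SHP2 sh2 replicates 1 and 3 (7.58 and 7.43) below the controls (7.90 and 8.30) and replicate 2 (8.16) between them, with SHP2 sh1 at 9.04 and 7.92. ANGPTL4, an inhibitor of lipoprotein lipase, ranged from 7.40 to 7.99 with SHP2 sh2 and from 7.72 to 8.02 with SHP2 sh1, against 7.87 and 8.29 with Ctrl shRNA. ANKRD37, an ankyrin repeat protein, stayed between 7.02 and 7.35 on all 7 arrays.

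Glycolytic enzymes had smaller differences with SHP2 sh2. Of 14 enzymes, 13 had a log2 difference from Ctrl shRNA below 0, with a median of -0.36 and a range from -0.75 to 0.06. Over all genes 7890 of 18417 were below 0, with a median of 0.09. On SHP2 sh2 replicates 1, 2 and 3 the enzymes had medians of -0.30, -0.84 and -0.04. Those of the brightest 25% of genes, to which 12 of 14 enzymes belong, were -0.13, -0.83 and 0.00. The enzymes' median of -0.36 was within 0.40, the SD between array medians within groups, which also pools the SHP2 sh1 arrays. It was -0.16 without SHP2 sh2 replicate 2. The general reference genes ACTB, HPRT1, TBP and B2M all had a difference below 0 with SHP2 sh2, with a median of -0.40, and their medians were -0.88 on SHP2 sh2 replicate 2 and -0.40 on SHP2 sh1 replicate 2. Whether they share a cause with the enzymes was not tested. In 6 of 14 all 3 SHP2 sh2 arrays lay below both controls (background 16.1%, and 28.9% among the brightest 25% of genes), and the same number did so without replicate 2. These 6 were HK2, TPI1, GAPDH, PGK1, ENO2 and LDHA. For GAPDH the margin was narrow, with SHP2 sh2 replicate 3 at 12.88 and the lower control at 12.89. With cyclic loess the medians with SHP2 sh2 became -0.08 for glycolytic enzymes, with 7 of 14 changing sign, and -0.30 for the other hypoxia genes, with 5 of 21 changing sign.

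At the head of the pathway, HK2, the inducible hexokinase, was at 8.62, 8.03 and 8.53 with SHP2 sh2 and 10.17 and 8.04 with SHP2 sh1, against 8.99 and 9.29 with Ctrl shRNA. The log2 difference with SHP2 sh2 was -0.75 (SE 0.59), and -0.57 without replicate 2. HK1, the constitutive hexokinase, overlapped more, at 8.73, 7.75 and 8.82 with SHP2 sh2 and 9.05 and 8.12 with SHP2 sh1, against 8.87 and 8.82 with Ctrl shRNA. GPI, the isomerase of the next step, had SHP2 sh2 replicate 3 at 11.22, above the controls at 10.99 and 11.07, with replicates 1 and 2 at 10.84 and 10.11 and the SHP2 sh1 arrays at 11.17 and 10.52. The phosphofructokinases carry out the committed step. PFKP was at 9.10, 7.70 and 9.54 with SHP2 sh2 and 9.5 and 8.35 with SHP2 sh1, against 9.75 and 9.23 with Ctrl shRNA. Its log2 difference of -0.71 (SE 0.60) was -0.17 without SHP2 sh2 replicate 2. PFKL was at 8.24, 8.03 and 8.36 with SHP2 sh2 and 8.46 and 8.46 with SHP2 sh1, against 8.34 and 8.44 with Ctrl shRNA, so that its groups lay close together.

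In the middle of the pathway, TPI1, the triose phosphate isomerase, was at 11.01, 10.86 and 11.34 with SHP2 sh2 and 11.64 and 10.70 with SHP2 sh1, against 11.59 and 11.66 with Ctrl shRNA. The log2 difference with SHP2 sh2 was -0.56 (SE 0.31), which cyclic loess moved to -0.13. ALDOA, the main aldolase of muscle and of many tumours, stayed between 9.61 and 10.03 on all arrays. ALDOC, the aldolase of brain, was the enzyme with a difference above 0 with SHP2 sh2, at 6.99, 7.22 and 7.07 with SHP2 sh2 and 7.61 and 6.99 with SHP2 sh1, against 6.92 and 7.14 with Ctrl shRNA. GAPDH, which is often used as a reference gene, was at 12.62, 12.66 and 12.88 with SHP2 sh2 and 12.94 and 12.38 with SHP2 sh1, against 12.89 and 12.90 with Ctrl shRNA. PGK1, which makes the first ATP of the pathway, was at 10.84, 10.17 and 11.15 with SHP2 sh2 and 11.68 and 9.86 with SHP2 sh1, against 11.35 and 11.29 with Ctrl shRNA. For PGK1 the arrays of SHP2 sh1 enclosed all others, and the log2 difference with SHP2 sh2 was -0.60 (SE 0.55), or -0.32 without replicate 2.

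At the end of the pathway, LDHA, which turns pyruvate into lactate, was at 11.90, 10.52 and 12.01 with SHP2 sh2 and 12.22 and 10.38 with SHP2 sh1, against 12.21 and 12.24 with Ctrl shRNA. The 2 low values were those of the arrays that stood apart, and on the other 3 SHP2 arrays LDHA differed from the Ctrl shRNA mean by -0.32 (SHP2 sh2 replicate 1), -0.22 (SHP2 sh2 replicate 3) and 0.00 (SHP2 sh1 replicate 1). Its log2 difference with SHP2 sh2 was -0.75 (SE 0.64), or -0.27 without replicate 2. ENO1, the ubiquitous enolase, was at 12.31, 11.40 and 12.56 with SHP2 sh2 and 12.39 and 11.74 with SHP2 sh1, against 12.43 and 12.31 with Ctrl shRNA. ENO2, the neuronal enolase, had every SHP2 sh2 array below both controls and SHP2 sh1 replicate 1 above them, at 6.60, 6.87 and 7.22 with SHP2 sh2 and 8.52 and 6.59 with SHP2 sh1, against 7.31 and 7.65 with Ctrl shRNA. PKM, pyruvate kinase, was at 11.71, 11.40 and 11.88 with SHP2 sh2 and 12.02 and 11.52 with SHP2 sh1, against 11.88 and 11.96 with Ctrl shRNA.

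With SHP2 sh1 the 2 arrays disagreed. SHP2 sh1 replicate 1 was above both controls for 19 of 21 other hypoxia genes and 10 of 14 glycolytic enzymes, as it was for 31.2% of all genes and 40.2% of the brightest 25%. It was the highest of the 7 arrays for 18 of 21 and 9 of 14 (background 15.5%, and 26.3% among the brightest). The exceptions among the other hypoxia genes were STC2, the 1 member below both controls there (40.8% of all genes), and ANGPTL4, between them. SHP2 sh1 replicate 2 lay below both controls for 18 of 21 and 12 of 14, where 37.4% of all genes and 69.0% of the brightest 25% did. The fitted log2 differences with SHP2 sh1 therefore had medians of 0.04 for the other hypoxia genes and -0.21 for the enzymes, against 0.04 over all genes, and each is a mean of 2 arrays that point opposite ways. Both arrays were below both controls for STC2 alone (1 of 35, with 12.3% of all genes), and both above for PFKL alone (12.8%). At an unadjusted p under 0.05, STC2 was the 1 member lower with SHP2 sh1, against 0.456% of all genes.

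**Figure D4:**
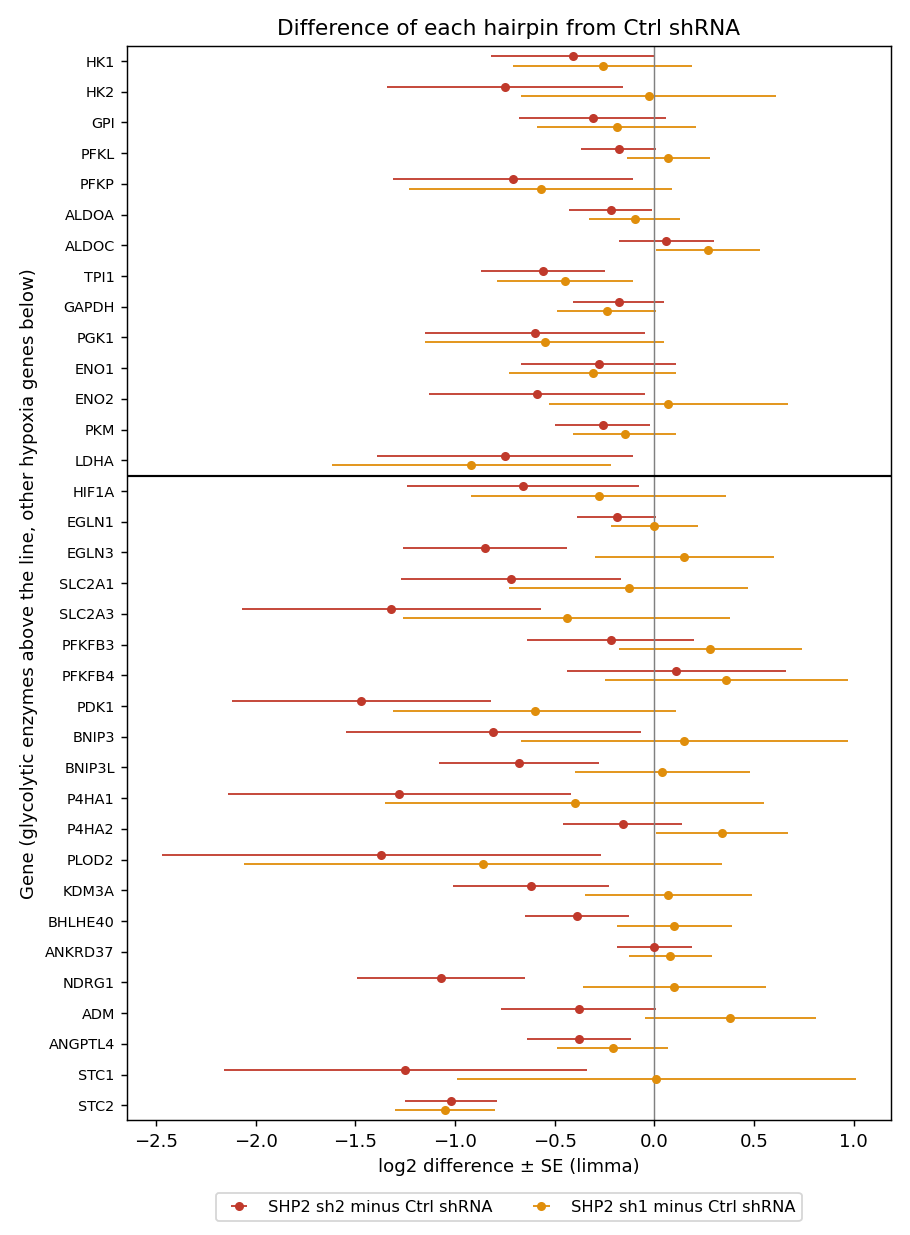
Log2 difference ± SE from limma (horizontal axis) of SHP2 sh2 (red) and SHP2 sh1 (orange) from Ctrl shRNA for the 35 measured members, with glycolytic enzymes above the line. The points of SHP2 sh2 run from -1.47 (PDK1) to 0.11 (PFKFB4), and STC2 is the gene for which both hairpins lie near -1 with short error bars.

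For the mean of both hairpins, 16 of 21 other hypoxia genes and 13 of 14 enzymes had a log2 difference below 0. Of all 18417 genes, 7726 did so. The medians of the 2 sets were -0.33 and -0.28, against 0.08 over all genes. After cyclic loess they were -0.09 and -0.01, against 0.01 over all genes, with 14 of 21 and 7 of 14 below 0. Without both arrays that stood apart, which left SHP2 sh1 with 1 array, the medians of the 2 sets were 0.07 and 0.00. At an unadjusted p under 0.05, STC2 was again the 1 member lower (background 1.25%), with -0.88 when both were left out, and none was higher (background 0.69%).

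Between the hairpins, SHP2 sh2 was lower than SHP2 sh1 for 20 of 21 other hypoxia genes, with a median log2 difference of -0.59. It was also lower for 11 of 14 enzymes, with a median of -0.12. Over all genes the median was 0.03 and 8228 of 18417 were lower. NDRG1 (-1.17, SE 0.42, adjusted p = 1.0 from limma) and EGLN3 (-1.0, SE 0.41, adjusted p = 1.0 from limma) were the 2 members at an unadjusted p under 0.05, against 0.57% of all genes in that direction, and none was higher (background 0.0597%). STC1 had a log2 difference of -1.26 (SE 0.91). These values rested on SHP2 sh1 replicate 1. Without it SHP2 sh1 had only replicate 2, an array that stood apart. The median of the other hypoxia genes was then 0.00, with NDRG1 at -0.47, EGLN3 at -0.39 and STC1 at 0.35. The pattern of SHP2 sh1 replicate 1 above both controls and all SHP2 sh2 arrays below both was found in 13 of 21 other hypoxia genes and 4 of 14 enzymes (background 5.20%, and 9.10% among the brightest 25%). The same arrays enter both sides of this count and of the comparisons above it, so it is a description of those arrays.

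Members varied together over the 7 arrays. Across pairs of genes the median Pearson correlation was 0.73 for the other hypoxia genes (210 pairs, -0.38 to 0.99) and 0.79 for the enzymes (91 pairs, 0.00 to 0.98). The arrays are shared by all pairs and 2 of them stood apart, so these values describe the set only. The Ctrl shRNA arrays also differed slightly, with 14 of 21 other hypoxia genes and 10 of 14 enzymes higher on replicate 2. Over all genes the medians were 0.01 on Ctrl shRNA replicate 1 and -0.01 on replicate 2. The share of all genes higher on replicate 2 was not counted.

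Further genes of the pathway were read from 3 lists. The 26 further HIF targets had a median log2 difference of -0.32 with SHP2 sh2 and 0.05 with SHP2 sh1. On SHP2 sh1 replicate 1 their median was 0.45 above the control mean and 19 of 26 were above both controls. There 31.2% of all genes and 40.2% of the brightest 25% were above both. DDIT4, an inhibitor of mTOR signalling induced by hypoxia, was at 7.0, 7.16 and 6.77 with SHP2 sh2 and 9.23 and 7.52 with SHP2 sh1, against 8.31 and 8.88 with Ctrl shRNA. As for NDRG1, SHP2 sh1 replicate 1 was highest and the SHP2 sh2 arrays were lowest. PPFIA4 had a log2 difference of 0.44 (SE 0.22, adjusted p = 0.758 from limma) for the mean of both hairpins. The 12 HIF regulators had medians of -0.33 with SHP2 sh2 and -0.09 with SHP2 sh1, with HIF3A at 0.37 and ELOB at 0.30 for the mean of both hairpins. The 29 further genes of glucose metabolism had medians of 0.18 with SHP2 sh2 and 0.08 with SHP2 sh1. Only 8 of them were among the brightest 25% of genes. Their medians were 0.06, 0.32 and 0.08 on SHP2 sh2 replicates 1, 2 and 3, and 0.06 and -0.05 on the SHP2 sh1 arrays. The part of brightness in these values was not tested. BPGM, which makes the bisphosphoglycerate that shifts oxygen binding in red cells, was below both controls on all 5 SHP2 arrays, at 7.40, 6.81 and 7.47 with SHP2 sh2 and 8.05 and 7.18 with SHP2 sh1, against 8.82 and 8.29 with Ctrl shRNA. For the mean of both hairpins its log2 difference was -1.14 (SE 0.33, adjusted p = 0.758 from limma). SLC2A6, a lysosomal glucose transporter, had a difference of 0.49 (SE 0.17) with all 5 SHP2 arrays above both controls. All 5 were below both controls for 7.17% of all genes and above both for 8.13%. No gene of these lists passed the adjusted threshold in any comparison.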

How the data were processed

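SUM159 RNA was measured on 7 arrays, grouped by sample title. The authors processed the scans with oligo and deposited log2 values from robust multi-array averaging (background correction, quantile normalization, summary per transcript). The release of oligo is not given in the sources used here. These log2 values were left unchanged. The platform annotation gave 1 symbol for 19460 of 33297 probes and several for 1754, and did not list 12083. RefSeq held 19429 of the gene IDs. Each gene was represented by its probe of largest interquartile range, a choice among several in 769 of 18417 genes. A limma model (3.58.1, R 4.3.3) with 3 group means was fitted to all arrays, with two-sided tests, Benjamini-Hochberg adjustment over all genes and a threshold of 0.05. The fit was also run on simulated data with independent noise. The check it had to pass used a smaller spread than these arrays have, so it does not cover arrays that stand apart. The members and lists were chosen with earlier results of these data known. All members could be named; those given first were set by p or range, besides HIF1A, CA9, SLC2A1, PDK1 and LDHA, and from each further list the 2 of smallest p for both hairpins. P4HA1, BNIP3 and the remaining members were described after their values were seen. Quantile normalization does not equalise summarised values, and the standard deviation of an array ran from 1.92 to 2.15. Precision is limited by 2 or 3 arrays a group. Alternatives were other probe rules, a filter leaving out the dimmest 25% of genes, centring on medians, cyclic loess, a variance trend, weights per array, a fit of the compared groups alone, a replicate block, and arrays left out. Promoter windows came from RefSeq, with 33 of 37 members matched.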

Additional observations from a re-analysis of the deposited data

Results flagged for a closer look

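PFKL, a phosphofructokinase of the liver type, was the member whose hairpins pointed in opposite directions on every array. It was below the Ctrl shRNA mean on all 3 SHP2 sh2 arrays (8.24, 8.03 and 8.36) and above it on both SHP2 sh1 arrays (8.46 and 8.46), with Ctrl shRNA at 8.39 ± 0.07 (SD, n = 2). SHP2 sh2 minus SHP2 sh1 was -0.25 on the log2 scale. SHP2 sh2 replicate 3 lay between the Ctrl shRNA arrays (8.34 and 8.44), and both SHP2 sh1 arrays were only just above the higher of them. The signs alone singled PFKL out, and no test was run for this selection. The share of all genes with such signs was not counted. In limma the difference did not pass (SE 0.19, adjusted p = 1.0).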

How the results depend on the processing

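In limma 0 genes and 0 members were called in every comparison under every alternative but 1. Gene-by-gene array weights called 122 of 18417 genes with SHP2 sh2 minus Ctrl shRNA. Of the 35 measured members they called 2, STC2 (-1.03, adjusted p = 0.0295) and EGLN3 (-1.14, adjusted p = 0.0486). SHP2 sh2 replicates 1, 2 and 3 had weights of 6.734, 0.1159 and 1.386, so the weighted SHP2 sh2 mean rested mostly on replicate 1. For EGLN3 that array was the lowest of the 7. Over all alternatives the adjusted p for STC2 in this comparison ran from 0.0295 to 1.0 and for EGLN3 from 0.0486 to 1.0. Leaving out both arrays that stood apart left SHP2 sh1 with replicate 1 alone. The other hypoxia genes then had a median of 0.67 with SHP2 sh1 and -1.14 between the hairpins. Cyclic loess turned PFKL with SHP2 sh2 to 0.05. With single arrays left out, the glycolytic median ranged from -0.68 to 0.10 with SHP2 sh1 and from -0.54 to 0.33 between the hairpins. That of the other hypoxia genes ranged from -0.60 to 0.67 and from -1.32 to 0.00. The ends of these ranges came from fits with 1 SHP2 sh1 array. STC1 between the hairpins ranged from -2.87 to 0.35. With SHP2 sh2 minus Ctrl shRNA, the median of the other hypoxia genes stayed between -0.85 and -0.46 and that of the enzymes between -0.58 and -0.16 when single arrays were left out. The causes were not tested.

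Replicate numbers were taken as names only. Deviations from the group mean correlated at 0.62 and 0.85 for same-numbered arrays of SHP2 sh1 and SHP2 sh2. Same-numbered pairs with Ctrl shRNA correlated at -0.06 to 0.02. SHP2 sh1 replicate 1 and SHP2 sh2 replicate 3 gave 0.81. In a group of 2 arrays the deviations are equal and opposite, so these values cannot settle whether the numbers mark pairs. With the replicate block, which leaves SHP2 sh2 replicate 3 without a partner, 0 genes were called, and the medians with SHP2 sh2 were -0.58 for the enzymes and -0.85 for the other hypoxia genes. Depth does not apply to arrays, whose number limits the precision.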
